A study of Arabidopsis thaliana with 28 samples.

Results

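The 8 genes described here encode light signalling factors of Arabidopsis thaliana: the bZIP transcription factors HY5 (AT5G11260) and HYH (AT3G17609), the phytochrome interacting factors PIF1 (AT2G20180), PIF3 (AT1G09530), PIF4 (AT2G43010), PIF5 (AT3G59060) and PIF7 (AT5G61270), and the E3 ubiquitin ligase COP1 (AT2G32950). They were chosen by locus for their role, by a rule that uses no measured value but with earlier results of these data known, and they are 8 of 27432 nuclear protein-coding genes. The mark was H3K9ac, histone H3 acetylated at lysine 9, which marks active genes. Every sample was whole 10-day-old seedlings of the wild-type accession Col-0, grown in long days of 16 h light and 8 h dark and left untreated, so no group differs in genotype or light. The 28 libraries form 14 groups of 2 replicates that differ in the way the chromatin was profiled. PHILO, in which chromatin immunoprecipitation (ChIP) is run on many samples of little tissue in parallel, was varied in sequencing depth (about 0.5M, 1M, 2M, 5M or 10M reads), in the cycles of library PCR (10, 12 or 14) and in its input, which was 500K, 100K or 20K nuclei or 1 mg of sonicated tissue. The last 2 groups were eChIP, in which the isolation of nuclei is abridged before the ChIP, and CUT&Tag, in which an antibody guides a Tn5 transposase to the mark. The groups are named here PHILO 0.5M to 10M, 10 to 14 cycles, 500K to 20K nuclei, 1 mg tissue, eChIP and CUT&Tag. The study states that depth and cycle samples were processed independently, but the labels do not name separate plants for each replicate, so the p-values measure the spread between these samples, which may be technical.

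HY5 and HYH promote development in the light. In darkness COP1 marks both proteins for degradation, and light keeps COP1 from doing so. PIFs act the other way: these bHLH factors promote growth in the dark and in shade, and most of them are degraded once they bind light-activated phytochrome. HY5 and the PIFs meet at common DNA sites, above all the G-box CACGTG.

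The deposited lists hold H3K9ac domains, stretches of the genome in which ChIP reads exceeded those of the control, which was precipitated with unspecific IgG. All lists rest on the same IgG counts. Every domain border in them lies on a grid of 200 bp, so no border is placed more finely than that. They hold 7813 to 15238 domains and 207252 to 7244177 ChIP reads in domains, with both lowest values in PHILO 0.5M and both highest in PHILO 10M. For each gene the domains that overlap its span were summed. The fold over IgG is the ratio of their ChIP to their IgG reads after division by library size. The centred level is its log2 minus that of the median gene of the same library, over the 7385 genes with a domain in all 28 libraries. The median gene's own fold ran from 2.48 in 20K nuclei replicate 1 to 7.91 in PHILO 0.5M replicate 2, so a fold is read beside that of its library. The green shoot genes RBCS1A and LHCB1.3 had a domain in all 28 libraries, whereas the root genes PHT1;1, NRT2.1 and RHD6 and the flower genes AG and AP3 had one in 0. Of the seed storage genes, CRA1 had a domain in 2 libraries, and CRU3 and OLEO1 in 0.

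The promoters of 3 of the genes are printed to show which DNA the domains did or did not cover. Each runs from 250 bases before to 50 bases after the annotated gene start, 5′ to 3′ on the strand of the gene, from the RefSeq annotation of TAIR10.1, which has the nuclear coordinates of TAIR10. Capitals mark the motifs searched on both strands, namely the G-box CACGTG, the PIF-binding E-box CACATG or CATGTG, and the ACGT core of bZIP sites, which every G-box contains.
HY5, chr5:3595024-3595323, minus strand: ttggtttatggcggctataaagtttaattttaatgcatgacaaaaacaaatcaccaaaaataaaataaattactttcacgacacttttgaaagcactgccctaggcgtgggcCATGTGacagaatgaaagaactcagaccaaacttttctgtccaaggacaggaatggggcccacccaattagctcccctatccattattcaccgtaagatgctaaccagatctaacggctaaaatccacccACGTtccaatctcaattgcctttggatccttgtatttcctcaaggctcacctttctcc
PIF5, chr3:21830788-21831087, minus strand: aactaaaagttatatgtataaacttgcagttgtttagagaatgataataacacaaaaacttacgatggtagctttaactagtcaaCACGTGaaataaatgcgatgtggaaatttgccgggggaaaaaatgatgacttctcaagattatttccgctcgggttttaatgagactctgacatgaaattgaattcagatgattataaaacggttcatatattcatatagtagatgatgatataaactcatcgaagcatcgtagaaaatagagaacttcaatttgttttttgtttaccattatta
COP1, chr2:13977631-13977930, plus strand: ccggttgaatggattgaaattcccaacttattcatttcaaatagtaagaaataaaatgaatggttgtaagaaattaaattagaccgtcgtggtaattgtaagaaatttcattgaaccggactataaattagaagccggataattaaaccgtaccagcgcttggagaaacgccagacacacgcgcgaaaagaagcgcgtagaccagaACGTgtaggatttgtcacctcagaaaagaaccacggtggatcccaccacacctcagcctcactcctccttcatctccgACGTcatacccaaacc
The window of HY5 lay outside every domain in 20 of 28 libraries and wholly inside in 7. The windows of PIF5 and COP1 lay wholly inside a domain in 27 and 26 libraries. Of the windows not printed, that of PIF1 lay outside in 25 libraries, that of PIF3 in 26, that of PIF4 in 12 and that of PIF7 in 13. These windows lie at the outermost annotated start, whereas transcripts of PIF3 start as far as 633 bp and those of PIF4 as far as 697 bp after it. PIF5 had the only G-box of the 7 windows described here, 165 bases before the gene start, a motif found in 7.68% of all 27432 promoter windows. HY5 had the E-box at 138 bases before the start, and PIF7 had it at bases 20 and 22 after the start in overlapping copies, against 12.9% of all windows. ACGT stood in the windows of HY5, PIF4, PIF5 and COP1, and in 49.9% of all windows. The windows of PIF1 and PIF3 held none of these letters.

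A domain lay over HY5, HYH, PIF1, PIF4, PIF5, PIF7 and COP1 in all 28 libraries. PIF3 had one in 27 and lacked it in 20K nuclei replicate 1. Thus 7 of the 8 genes were marked in every library, against 26.9% of all protein-coding genes. Without that library, all 8 genes were marked in the other 27, against 27.9% of all genes. The least certain call for any of the 8 was one of HY5, with a false discovery rate of 9.36e-06 in the caller's own test. With domains of at least 2-fold enrichment (log2 of 1 or more), 5 of the 8 genes were still marked in all 28 libraries, against 17.8% of all genes.

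**Figure D1:**
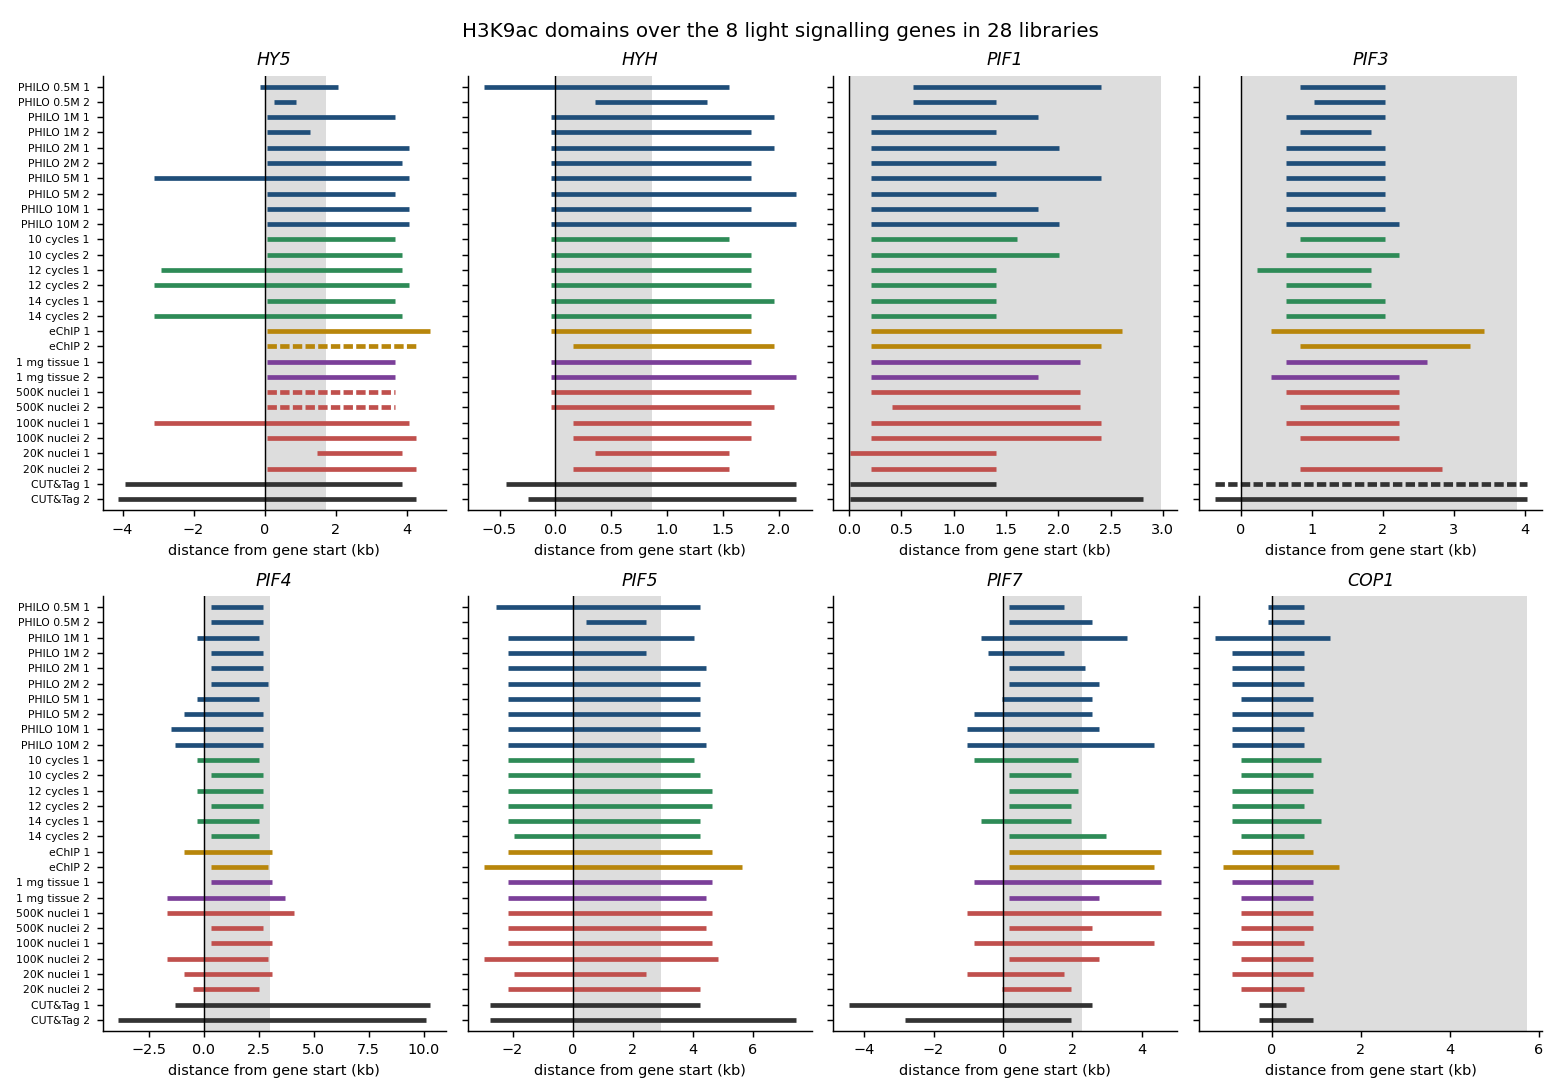
Called H3K9ac domains in each of the 28 libraries (lines, coloured by series) along the 8 genes, with distance from the annotated gene start in kb on the x axis, transcription running to the right, and the gene span in grey; a dashed line joins 2 separate domains. In most libraries the domains of PIF1 and PIF3 begin inside the gene and that of PIF5 extends far beyond both gene ends, and that of COP1 covers the 5′ end of a long gene.

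The domains sat on different parts of the 8 genes. HY5 lies on chromosome 5 at 3593335 to 3595073, minus strand. Its domain began 73 bp after the gene start, 200 bp before the start codon, in 18 of 28 libraries, and ran past the gene end into the neighbour AT5G11250 in 26 libraries. In 7 libraries, among them both CUT&Tag libraries, it also reached upstream over OCP3. In eChIP replicate 2 and in both 500K libraries HY5 carried 2 separate domains, which together covered 49.8% of the gene. HYH lies on chromosome 3 at 6023844 to 6024710, plus strand, and is the shortest gene of the set with 867 bp. Its domain began 43 bp before the start in 19 libraries, covered the whole gene in the median library, and continued into RBL14, which starts 84 bp downstream, in all 28. The level measured for HYH therefore includes reads over RBL14 in every library.

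The PIF domains shared no common layout. In PIF1, chromosome 2 at 8704024 to 8707009, minus strand, the domain began after the gene start in all 28 libraries, at 209 bp in 22 of them, and its most frequent form of 1200 bp lay wholly within the gene. In PIF3, chromosome 1 at 3075768 to 3079654, plus strand, the border was at 633 bp in 14 libraries, and the start codon at 1448 bp. PIF3 has 6 annotated transcripts that start from 0 to 633 bp, so this border falls at the last of these starts. In 25 libraries the border lay after the gene start, and in both CUT&Tag libraries it lay 367 bp before it. For comparison, the 5′ border lay after the gene start in 53.0% of all genes with a domain in each PHILO 10M library. In PIF4, chromosome 2 at 17886101 to 17889087, plus strand, annotated transcripts start from 0 to 697 bp. Its border was at 300 bp in 12 libraries and upstream of the gene start in 16, as far as 3900 bp. In PIF7, chromosome 5 at 24638491 to 24640765, minus strand, it was at 165 bp in 13 libraries and upstream in 15, as far as 4435 bp. The 3′ end of PIF7 overlaps AT5G61260 by 318 bp, and the domain touched that gene in 25 libraries. In PIF5, chromosome 3 at 21827905 to 21830837, minus strand, the border was 2163 bp upstream of the start in 20 libraries. This is past the near end of the neighbour AT3G59070, which lies 1526 bp away, and on the other side the domain ran into the polyamine oxidase gene PAO3 in 25 libraries. The PIF5 domain was called as 1 unbroken stretch in all 28.

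In COP1, chromosome 2 at 13977881 to 13983609, plus strand, the domain began upstream of the gene start in all 28 libraries, 880 bp upstream in 13 of them, and covered a median of 16.1% of the gene. AGO6, which encodes an Argonaute protein, lies on the opposite strand with 359 bp between both gene spans, and the domain reached AGO6 in 24 libraries. The exceptions were both PHILO 0.5M and both CUT&Tag libraries, in which the border was 80 bp and 280 bp upstream. The usual COP1 domain of 1600 bp held 880 bp outside the gene.

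In PHILO 10M, the deepest group, the domains of all 8 genes were wider than the median of 1300 bp over 17112 genes with a domain in both replicates. The domain of PIF5 measured 6400 and 6600 bp, wider than that of 98.7% of these genes. PIF7 followed with 3800 and 5400 bp, PIF4 with 4200 and 4000 bp, and HY5 with 4000 bp in both. HYH had 1800 and 2200 bp, PIF1 1600 and 1800 bp, COP1 1600 bp in both, and PIF3 1400 and 1600 bp.

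The levels followed another order. In PHILO 10M the median gene of the 17112 had a 4.33-fold level over IgG. PIF1 had the highest level of the set, 7.03-fold and 6.40-fold in replicates 1 and 2, above 90.9% of these genes by the mean of both. PIF5 had 6.07-fold and 5.75-fold, HYH 6.25-fold and 5.04-fold, and COP1 4.84-fold and 5.26-fold. The other 4 genes were below the median gene. PIF4 had 4.21-fold and 4.25-fold, PIF3 4.59-fold and 3.69-fold, HY5 3.81-fold and 3.93-fold, and PIF7 3.66-fold and 2.98-fold. The replicates of PIF1 did not overlap with those of any other gene of the set, nor did those of PIF7, whereas HYH overlapped with both PIF5 and COP1, as did PIF3 with both PIF4 and HY5. Per length of called domain, PIF5 had 460.8 and 489.1 ChIP reads per kb, overlapping with HYH (488.9 and 433.2) and PIF1 (451.9 and 468.3). HY5 had 279.3 and 319.5 per kb, overlapping with PIF7 (333.4 and 279.8), COP1 (283.8 and 341.9) and PIF4 (311.0 and 349.5), against 339.5 per kb for the median gene.

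**Figure D2:**
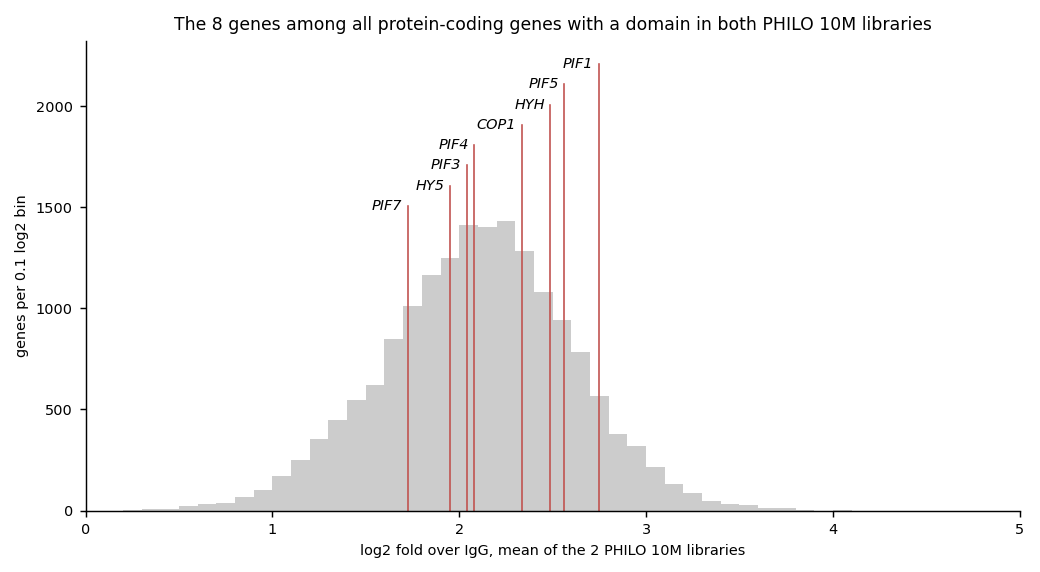
Distribution of log2 fold over IgG (x axis, mean of the 2 PHILO 10M libraries) over 17112 protein-coding genes, as genes per bin of 0.1 (grey bars), with the 8 light signalling genes as red lines. PIF1, PIF5, HYH and COP1 stand above the median gene, and PIF4, PIF3, HY5 and PIF7 below it.

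HY5 was below the median of the 7385 genes marked in all libraries throughout, and in PHILO 10M it was above 37.0% of the 17112 genes. In the depth series its fold over IgG was 3.48 and 5.51 in PHILO 0.5M, 3.36 and 6.21 in 1M, 3.42 and 3.35 in 2M, 3.48 and 3.93 in 5M and 3.81 and 3.93 in 10M. It was 3.52 and 3.87 with 10 cycles, 3.14 and 3.17 with 12 and 3.44 and 3.08 with 14. The widest replicate gaps were those of PHILO 0.5M and 1M, where the lower value came with the wider domain, 2200 against 600 bp and 3600 against 1200 bp. With 500K nuclei the fold was 3.26 and 3.31, with 100K 2.72 and 2.95, and with 20K 1.83 and 1.70. In 1 mg of tissue it was 3.07 and 2.98, in eChIP 2.35 and 2.89 and in CUT&Tag 2.36 and 2.44. The centred level of HY5 was below 0 in all 28 libraries, between -0.75 in 100K replicate 1 and -0.055 in PHILO 1M replicate 2. The domains over HY5 were thus below the median gene in each library, most nearly alike in that one PHILO 1M library and in CUT&Tag replicate 2 at -0.10. These values include reads over AT5G11250 in 26 libraries, since the usual domain of 3600 bp held 1934 bp outside HY5, and in 20K nuclei replicate 1 the domain covered 15.3% of HY5.

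HYH, its close relative, was at the level of the median of the 7385 genes, with 14 libraries above it and 14 below, between -0.45 and 0.28. Among the 17112 genes of PHILO 10M it was above 78.6%. Its fold ran from 2.33 in 20K replicate 2 to 8.60 in PHILO 0.5M replicate 2. HYH was above HY5 in centred level in each of the 28 libraries. In PHILO 10M the difference was 6.25-fold and 5.04-fold for HYH against 3.81-fold and 3.93-fold for HY5.

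**Figure D3:**
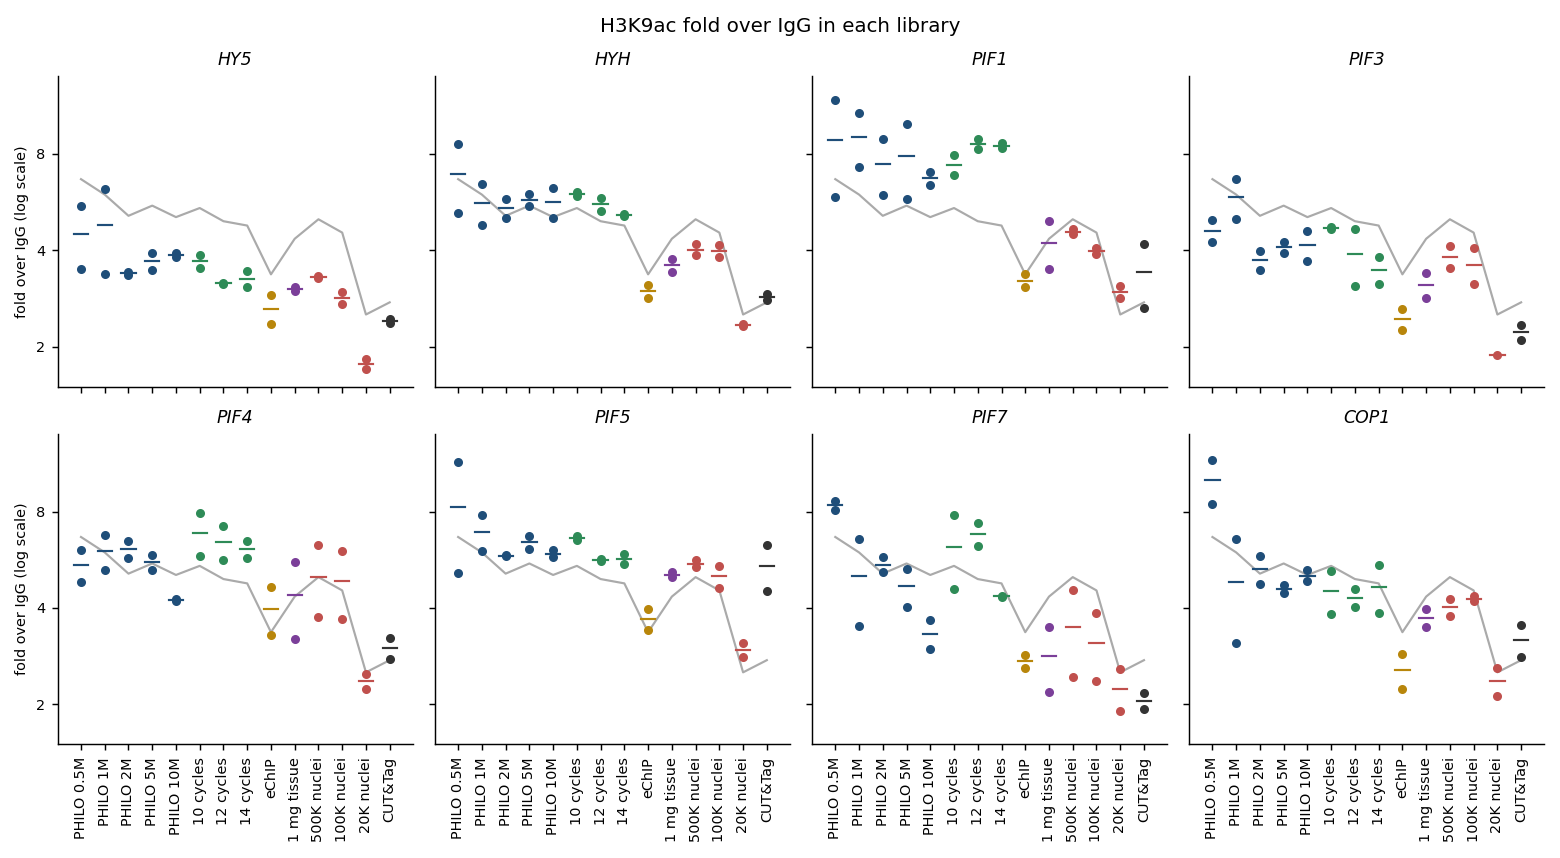
Fold over IgG (y axis, log scale) of the 8 genes in each library (points), by group (x axis), with the group mean as a short bar; the grey line joins the geometric mean of the median gene's fold in the 2 libraries of each group. HY5 lies below the grey line in every library except PHILO 1M replicate 2, where it was still below the median gene of that library itself. Every gene follows the drop of the grey line in 20K nuclei.

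Among the PIFs, PIF5 was above the median gene in 26 libraries, PIF1 in 21, PIF4 in 16, PIF7 in 9 and PIF3 in 1, the last at 0.049 in PHILO 1M replicate 2. The fold of PIF5 was 5.14 and 11.4 in PHILO 0.5M, 6.03 and 7.79 in 1M, 5.85 and 5.80 in 2M, 6.13 and 6.72 in 5M and 6.07 and 5.75 in 10M. It was 6.53 and 6.70 with 10 cycles, 5.61 and 5.69 with 12 and 5.89 and 5.50 with 14. Beyond PHILO 0.5M, all of these PIF5 values lay between 5.50 and 7.79. It was 5.65 and 5.36 with 500K nuclei, 5.41 and 4.63 with 100K, 3.11 and 2.82 with 20K, 4.98 and 5.19 in 1 mg of tissue, 3.98 and 3.41 in eChIP, and 6.28 and 4.52 in CUT&Tag. The 11.4-fold value belongs to the narrowest PIF5 domain, 2000 bp with 59 ChIP reads.

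PIF1 ran from 2.64-fold in CUT&Tag replicate 2 to 11.7-fold in PHILO 0.5M replicate 2, with a median of 5.90. Its centred level was above 0 in all 16 libraries of the depth and cycle series, between 0.06 and 0.89, and below 0 in both eChIP libraries, at -0.11 and -0.02, and in all 4 libraries of 500K and 100K nuclei, between -0.23 and -0.07. PIF4 ran from 2.24-fold in 20K replicate 1 to 7.89-fold with 10 cycles, replicate 2. PIF3 ran from 1.89-fold in 20K replicate 2 to 6.67-fold in PHILO 1M replicate 2, and PIF7 from 1.90-fold in 20K replicate 1 to 8.66-fold in PHILO 0.5M replicate 2. PIF7 was the most variable of the 8 between libraries, with a centred level from -0.96 to 0.58. These values moved with the called width. In 500K nuclei the domain of PIF7 was 5600 bp in replicate 1 and 2400 bp in replicate 2, and the fold 2.44 and 4.55. In 100K nuclei it was 5200 and 2600 bp with 2.37-fold and 3.85-fold, and in 1 mg of tissue 5400 and 2600 bp with 2.19-fold and 3.50-fold.

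COP1 was near the median gene, above it in 9 libraries, with a centred level from -0.82 to 0.59. Its fold was 8.46 and 11.6 in PHILO 0.5M, 3.12 and 6.55 in 1M, 4.74 and 5.83 in 2M, 4.73 and 4.45 in 5M and 4.84 and 5.26 in 10M. The PHILO 0.5M values rest on 17 ChIP reads each in a domain of 800 bp. It was 3.84 and 5.21 with 10 cycles, 4.03 and 4.59 with 12, 3.87 and 5.45 with 14, 3.77 and 4.26 with 500K nuclei, 4.35 and 4.21 with 100K, and 3.48 and 3.97 in 1 mg of tissue. Of these, the groups 0.5M and 5M, 12 cycles, 500K and 100K nuclei and 1 mg of tissue did not overlap with PHILO 10M, with 0.5M above it and the others below, whereas 1M, 2M, 10 cycles and 14 cycles did. The fold of COP1 was 2.59 and 2.13 with 20K nuclei, 2.87 and 2.23 in eChIP and 3.54 and 2.81 in CUT&Tag, also below both PHILO 10M values, and CUT&Tag overlapped with 1 mg of tissue. The median gene too was above its own PHILO 10M values, 5.16 and 4.98, in 0.5M. It was below them in 12 cycles, 100K and 20K nuclei, 1 mg of tissue, eChIP and CUT&Tag. In 5M it was above them, at 5.49 and 5.53, and in 500K nuclei it overlapped, at 4.73 and 5.27. Of the groups in which COP1 overlapped, the median gene was above its PHILO 10M values in 1M, at 5.51 and 6.45, and in 10 cycles, at 5.21 and 5.63. It was below them in 14 cycles, at 4.89 and 4.66, and overlapped in 2M, at 5.15 and 5.09. The share of all genes without such overlap was not determined.

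Ranked by mean fold, 20K nuclei was the lowest group for 7 of the 8 genes and CUT&Tag for PIF7. The median gene was also lowest in 20K nuclei, at 2.48-fold and 2.56-fold, followed by CUT&Tag at 2.88-fold and 2.62-fold. Of the 13 neighbouring pairs of groups in that order, 8 overlapped between replicates for HY5, 9 for HYH, 10 for PIF3 and PIF5, 11 for PIF4 and PIF7, and 12 for PIF1 and COP1. The order of most neighbouring groups was thus within the spread of the replicates. This check covers neighbours alone, which are the closest groups by mean, and does not describe groups further apart.

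The 6 comparisons below were fitted with edgeR's quasi-likelihood test over all genes with a domain in every library compared, with Benjamini-Hochberg (BH) adjustment over those genes and a threshold of 0.05. Each log2 change is that of ChIP over IgG relative to the median gene of the fit. For a 10-fold rise in depth the median gene itself shifted by -0.27 on the log2 scale. None of the 8 genes passed, and 1 of them and 1073 of all genes had an unadjusted p under the threshold. Over all genes 2 of 8422 were called, 0.0237%, and DESeq2 called 185 genes and 0 of the 8. PIF7 had the largest estimate, -0.54 ± 0.20 (SE, 10 libraries), with an adjusted p of 0.306 in edgeR with BH. The other 7 estimates lay between -0.098 and 0.16.

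Between 14 and 10 PCR cycles the median gene shifted by -0.18. None of the 8 genes and none of 14733 genes (0%) passed with edgeR, with 710 genes at an unadjusted p under the threshold and 11 genes and 0 of the 8 called by DESeq2. PIF1 was the gene of the set with an unadjusted p under the threshold, at 0.38 ± 0.16 and an adjusted p of 0.970 in edgeR with BH, but at -0.14 with the ChIP counts alone scaled by TMM. Its domain was narrower with 14 cycles, 1200 bp in both replicates, than with 10 cycles, 1400 and 1800 bp.

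Between 20K and 500K nuclei the median gene shifted by -0.94, so the fall in fold seen for each gene above was shared by most genes. Relative to it, the 7 genes that could be tested had estimates between -0.11 for PIF4 and 0.32 for PIF7, whereas with TMM HYH, PIF1, PIF5 and PIF7 were at -0.24 to -0.40. The library-size scale keeps the shift of the median gene. On it all 7 were below 0 and 6 passed as lower, all but PIF7, as did 10747 of 11914 genes. Relative to the median gene none of the 7 passed, nor did any of 11914 genes (0%) with edgeR. At an unadjusted p under the threshold there were 1612 genes and 0 of the 7, and DESeq2 called 112 genes and 0 of the 7. PIF3 was not tested because it lacked a domain in 20K replicate 1.

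The next 3 comparisons share the PHILO 10M libraries, and in each the method and the batch of preparation cannot be told apart. In 1 mg of tissue against PHILO 10M the median gene shifted by -0.18, and 35 of 16066 genes were called, 0.218%, a count that fell to 0 when any of the 4 libraries was left out. None of the 8 passed, with 2 of them and 3375 genes at an unadjusted p under the threshold and 359 genes and 0 of the 8 called by DESeq2. Those 2 were PIF1 and HYH. PIF1 was at -0.50 ± 0.15 (adjusted p = 0.185) and HYH at -0.46 ± 0.14 (adjusted p = 0.192) by edgeR with BH, and 7 of the 8 estimates were below 0, all but that of PIF4, which was also below 0 with the ChIP counts alone scaled by TMM, where HYH and PIF1 passed as lower. With TMM 1059 of 16066 genes passed as lower. In eChIP the median gene shifted by -0.52, and none of 15859 genes (0%) and none of the 8 passed with edgeR, with 3599 genes and 3 of the 8 at an unadjusted p under the threshold and 319 genes and 0 of the 8 called by DESeq2. Those 3 were PIF1 at -0.54 ± 0.09 (adjusted p = 0.0909), COP1 at -0.47 ± 0.17 (adjusted p = 0.204) and HYH at -0.40 ± 0.13 (adjusted p = 0.178) in edgeR with BH. PIF4 was at 0.42 ± 0.17 (adjusted p = 0.233, edgeR with BH), but at -0.25 with TMM and -0.099 on the library-size scale. On that scale 6 of the 8 passed as lower, all but PIF4 and PIF7, and with TMM HYH did. Over all 15859 genes, 9828 passed as lower on the library-size scale and 1006 with TMM.

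In CUT&Tag against PHILO 10M the median gene shifted by -0.76, and 5289 of 14089 genes were called by edgeR, 37.5%, of which 2692 were higher, 19.1% of those tested. PIF5 was the gene of the set that passed, higher by 0.62 ± 0.12 on the log2 scale relative to the median gene (SE, n = 2 and 2, adjusted p = 0.0157 in edgeR with BH), whereas it was at -0.10 with the ChIP counts alone scaled by TMM and at -0.14 on the library-size scale. Without 1 of the 4 libraries it was between 0.46 and 0.78, with an adjusted p of at most 0.0406 in edgeR with BH. The fold of PIF5 was 6.28 and 4.52 in CUT&Tag and 6.07 and 5.75 in PHILO 10M, overlapping, while that of the median gene of all libraries went from 5.16 and 4.98 to 2.88 and 2.62. The centred level of PIF5 was 1.12 and 0.79 in CUT&Tag against 0.23 and 0.21, and did not exceed 0.53 in any other library. The domain behind it measured 7000 and 10200 bp against 6400 and 6600 bp, and reached into PAO3 and AT3G59070 too. PIF4 was at 0.26 ± 0.08 with an adjusted p of 0.0514 in edgeR with BH. Its CUT&Tag domains of 11600 and 14000 bp reached PAO2, AT2G43030 and NPG1 besides PIF4, and the wider one also reached NAC042 upstream. The other 6 genes were between -0.28 for PIF1 and 0.08 for HY5 and PIF7, whereas with TMM COP1 was at -1.76 (adjusted p = 0.00976), HYH and PIF1 also passed as lower and PIF4 as higher, and on the library-size scale HY5 and PIF7 were at -0.69 and COP1 at -0.72, and all but PIF5 passed as lower (adjusted p at most 0.00938, edgeR with BH). Over all 14089 genes, 2935 passed as lower and 3353 as higher with TMM, and 10611 as lower on the library-size scale.

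**Figure D4:**
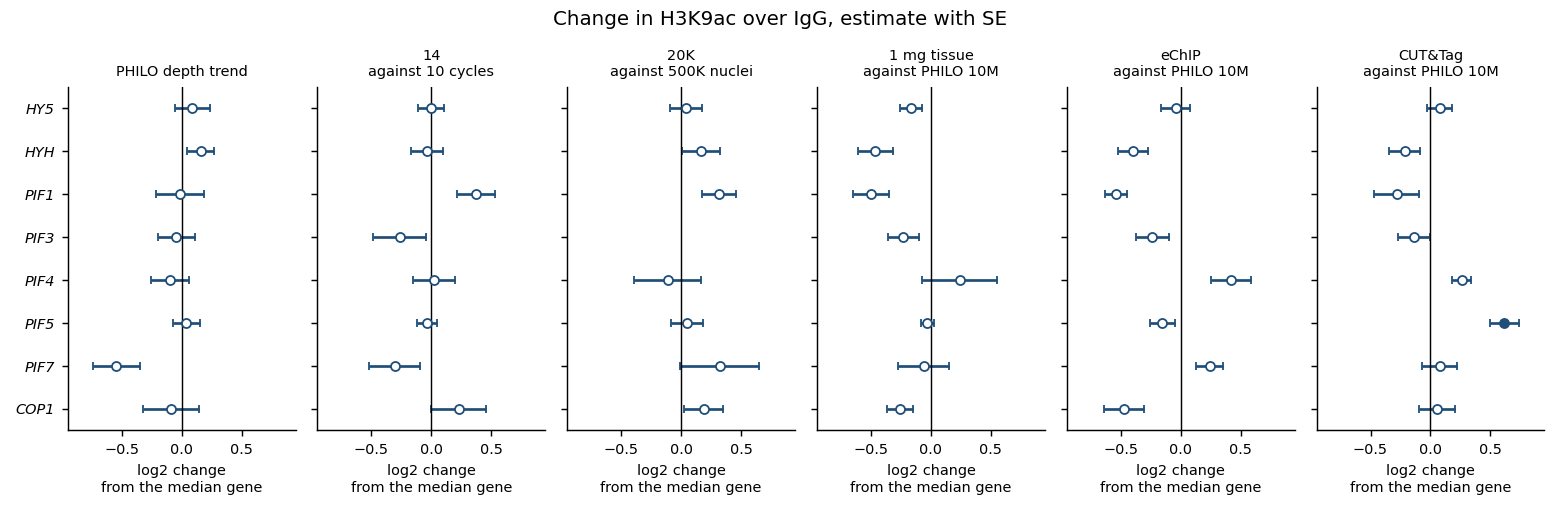
Log2 change in ChIP over IgG relative to the median gene (x axis) of the 8 genes (y axis) in the 6 comparisons, as the edgeR estimate with its SE; a filled point passed the adjusted threshold and an open point did not. The filled point is PIF5 in CUT&Tag at 0.62, and PIF3 has no point in 20K against 500K nuclei.

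Over the 8 genes the median change was -0.03 over depth, -0.02 for cycles, -0.20 for 1 mg of tissue, -0.20 for eChIP and 0.07 for CUT&Tag, and 0.16 over 7 genes for 20K nuclei. The median over all genes tested lay between -0.000066 and 0.03 in these fits.

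Called widths were compared by whether both replicates of a group were wider, or both narrower, than both of the other group. With 0.5M instead of 10M reads, 5 of the 8 genes were narrower, namely HY5, PIF3, PIF4, PIF7 and COP1, and 0 were wider, against 43.5% and 3.17% of all genes. With 14 instead of 10 cycles PIF1 was narrower and 0 were wider, against 7.41% and 8.54%. With 20K instead of 500K nuclei, HYH, PIF1 and PIF5 were narrower and 0 of 7 wider, against 16.2% and 11.2%. In 1 mg of tissue PIF3 was wider and HY5 narrower, against 16.3% and 8.55%. In eChIP, PIF1, PIF3, PIF5 and COP1 were wider and 0 narrower, against 35.0% and 6.06%. In CUT&Tag, HY5, HYH, PIF3, PIF4 and PIF5 were wider, against 70.0%, and COP1 was narrower, against 4.48%. The 5 of 8 in CUT&Tag and the 4 of 8 in eChIP were near the share over all genes. The COP1 domain was 600 and 1200 bp in CUT&Tag against 1600 bp in both PHILO 10M libraries, while the median gene was called 2.27 times as wide. PIF3 went the usual way, from 1400 and 1600 bp to 3600 and 4400 bp.

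Within groups, the wider of 2 replicates had the lower centred level in 13 of 14 pairs of unequal width for PIF7, in 12 of 13 for PIF4, in 11 of 11 for HYH and in 10 of 11 for PIF1. HY5 was less regular, with 7 of 11. Over all genes with a domain in all libraries this held in 81.9% of such pairs. The replicate SD of the centred level was 0.33 for PIF7, 0.29 for PIF4, 0.26 for PIF1, 0.24 for COP1, 0.18 for PIF3, 0.17 for PIF5, 0.16 for HY5 and 0.13 for HYH, against a median of 0.21 over all genes. Some domains had the same borders in several libraries and are compared here at equal width. PIF5 had the same interval of 6400 bp with 487 IgG reads in 7 libraries from 2M to 20K nuclei, and its centred level there was 0.14 to 0.28. PIF1 had the same 1200 bp in 8 libraries, with 0.28 to 0.89, and 20K replicate 2 was the lowest of them. COP1 had the same 1600 bp in 7 libraries, with -0.12 to 0.20. HYH had the same 1800 bp in 11 libraries, with -0.23 to 0.28, and the 3 lowest of them were eChIP, 500K and 1 mg of tissue.

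Genes that work with these 8 varied in how often they were marked. Of the COP1 partners SPA1 to SPA4, DET1, COP10, DDB1A, DDB1B and CUL4, which form ubiquitin ligase complexes with or beside COP1, DET1, COP10 and DDB1A had a domain in all 28 libraries and the other 6 in 25 to 27. Of the 6 B-box proteins that act with HY5, BBX21, BBX22 and BBX24 were marked in all 28, BBX25 in 25, BBX20 in 7 and BBX23 in 0. None of the 8 PIF relatives and antagonists was marked in all. PAR1 and PAR2, which bind PIFs without binding DNA themselves, were marked in 27 and 25, HEC1 in 24, PIF8 in 23, HFR1 in 16, PIL1 in 5, PIF6 in 1 and HEC2 in 0. Of 11 known targets of HY5 or the PIFs, ATHB2 and PSY were marked in all 28, IAA19 in 27, and F3H and PORC in 26. Chalcone synthase CHS and the auxin gene YUC8 were marked in 4 each, ELIP2 in 8, ELIP1 in 11, MYB12 in 12 and IAA29 in 0.

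**Figure D5:**
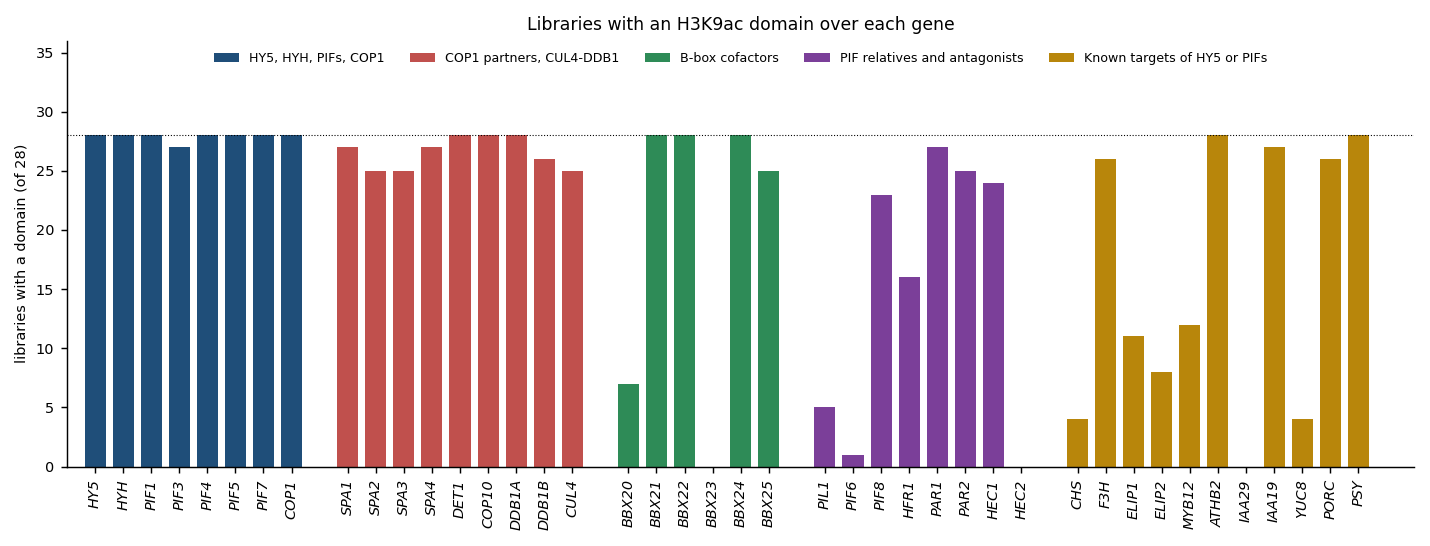
Number of libraries, of 28, with a called H3K9ac domain (y axis) over each gene (bars) of the light signalling set and of 4 lists of related genes (colours). The 8 genes at the left reach 27 or 28, the COP1 partners 25 to 28, and the other lists spread from 0 to 28.

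Of these lists, members passed the test in CUT&Tag against PHILO 10M alone among the 6 comparisons, against the 37.5% of all genes called there. In that comparison 1 of 7 COP1 partners tested was higher (SPA3), 1 of 4 B-box genes was higher (BBX25) and 1 lower (BBX21), 1 of 6 PIF relatives was higher (HFR1), and of 7 targets 1 was higher (PORC) and 3 were lower (PSY, ATHB2 and IAA19), each relative to the median gene, and the direction of SPA3, BBX25, HFR1, PSY and IAA19 depended on the scaling. HFR1, an atypical bHLH factor that sequesters PIFs, was at 1.40 ± 0.23 (adjusted p = 0.0103 in edgeR with BH), but at -1.48 with the ChIP counts alone scaled by TMM. BBX21, a positive factor of the light response, was at -1.03 ± 0.11 (adjusted p = 0.0051 in edgeR with BH), and was below 0 under each scaling. Among the targets, PORC, an enzyme of chlorophyll synthesis, was at 0.89 ± 0.11 (adjusted p = 0.0057 in edgeR with BH) and above 0 under each scaling. PSY, an enzyme of carotenoid synthesis, was at -0.83 ± 0.13 (adjusted p = 0.0104 in edgeR with BH), but at 0.47 with TMM. The shade gene ATHB2 was at -0.65 ± 0.15 (adjusted p = 0.0228 in edgeR with BH) and below 0 under each scaling, and the auxin response gene IAA19 was at -0.73 ± 0.20 (adjusted p = 0.0394 in edgeR with BH), but at 0.67 with TMM. SPA3 was at 0.51 ± 0.13 (adjusted p = 0.0325 in edgeR with BH), but at -0.25 on the library-size scale. BBX25 was at 0.45 ± 0.12 (adjusted p = 0.0385 in edgeR with BH), but at -0.92 with TMM and -0.31 on the library-size scale. BBX21 and PORC passed also without any 1 of the 4 libraries, whereas the highest adjusted p in edgeR with BH was then 0.0508 for ATHB2, 0.0747 for PSY, 0.0769 for HFR1, 0.0963 for IAA19, 0.120 for BBX25 and 0.156 for SPA3. The median change of the lists in this comparison was 0.05 for the COP1 partners, -0.21 for the B-box genes, -0.15 for the PIF relatives and 0.07 for the targets, against 0.0087 over all genes.

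The genes whose centred level followed that of HY5 most closely over the 28 libraries were AT5G62580 (Pearson's r = 0.74), AT5G17250 (0.70) and AT5G54730 (0.66), among 7381 genes. Without CUT&Tag these values were 0.66, 0.55 and 0.50. For COP1 the most alike were AT2G30460 (0.74), RIF10 (0.71) and AT5G16200 (0.70), among 7383. Within the set, over the 7 genes marked in all libraries, HYH and PIF1 were the most alike at 0.68, followed by HY5 and PIF5 at 0.50, and PIF5 and PIF7 the least at -0.22. The points share libraries, depth and the IgG control, and these values describe the 28 libraries.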

How the data were processed

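H3K9ac was profiled in 28 libraries of Col-0 seedlings, 14 groups of 2 replicates by their labels. The authors aligned the reads to TAIR10 with Bowtie2 and called domains per library with epic2 against IgG (the submitters' processing notes name SICER 0.0.52); the window, gap, false discovery rate limit and duplicate handling are not given in the sources used here. The deposited lists give raw counts of ChIP and IgG reads per domain, the log2 fold change after division by library size, p-values, false discovery rates and a score. The deposited p-values and score were not used, and the false discovery rate served to describe calls and for 1 alternative. A domain was assigned to each gene span it overlapped by 1 bp or more, so adjacent genes share reads.

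Per gene, summed ChIP counts were fitted with edgeR 4.0.16 (R 4.3.3), with an offset of log IgG reads plus the log of the median ChIP over IgG ratio of the library. Genes needed a domain in every library of the fit and 5 IgG reads, and adjusted p-values (BH) under 0.05 were called. The code was tested on simulated data. Alternatives were TMM on ChIP counts alone, library-size scaling recovered from the deposited log2 values, DESeq2 1.42.0, no IgG minimum beyond 1 read, an overlap of 200 bp, a log2 fold change of at least 1, a false discovery rate of at most 1e-10, a replicate block and leaving out each replicate. Leaving out 20K nuclei replicate 1 or both PHILO 0.5M libraries from the count of marked genes was added after the data had been seen. Tables were made with Python 3.11.15.

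The members and lists were chosen with earlier results of these data known. Text names all 8 genes, from each list up to 3 genes called in a comparison by smallest adjusted p (IAA19 was added to name all of a count), and the 3 most alike genes over 20 kb away for HY5 and COP1; the same for PIF4 and 1 promoter window are not reported here. Over domains with identical borders, which are a selected subset, the spread between replicates relative to counting noise ran from 0.757 to 1.56 and was below 1 in 11 of 14 groups. All replicate files hold different ChIP counts and were kept as separate samples. The counts are of reads, not molecules. Authors' comparisons between groups were not used.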

Additional observations from a re-analysis of the deposited data

How the results depend on the processing

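The number of the 8 genes marked in all 28 libraries was 7, as it was with an overlap of 200 bp, and was 5 with only domains enriched at least 2-fold, 6 with a false discovery rate of at most 1e-10, 8 without 20K nuclei replicate 1 and 7 without both PHILO 0.5M libraries. The mean width changed by more than the replicate SD with an overlap of 200 bp for HY5 in eChIP and in 500K nuclei. No IgG minimum and DESeq2 changed no call of the 8 genes, whereas the scaling did. On the library-size scale 7 genes passed as lower in CUT&Tag, where PIF5 no longer passed, and 6 did so in both eChIP and 20K nuclei. Over all genes 10611 of 14089, 9828 of 15859 and 10747 of 11914 passed as lower there. With TMM 2 passed as lower in 1 mg of tissue, 1 in eChIP and 3 in CUT&Tag, where PIF4 passed as higher and PIF5 no longer passed. Over all genes 1059 of 16066, 1006 of 15859 and 2935 of 14089 passed as lower with TMM, and 3353 as higher in CUT&Tag.

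The counts of genes called depended on the scaling, and the cause was not tested. With TMM on ChIP counts alone 10 genes were called over depth, 28 for cycles, 77 for 20K nuclei, 1882 for 1 mg of tissue and 1876 for eChIP. On the library-size scale the counts were 111 over depth, 10751 for 20K nuclei, 405 for 1 mg of tissue, 9884 for eChIP and 10778 for CUT&Tag. DESeq2 called 185, 11, 112, 359 and 319 genes in the first 5 comparisons. With only domains enriched at least 2-fold, 0 genes were called for 1 mg of tissue. Without 1 replicate the count was 0 to 5 over depth, 0 for cycles, 20K nuclei, 1 mg of tissue and eChIP, and 3172 to 4079 for CUT&Tag.

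The replicate numbers do not pair the samples: correlations of same-numbered deviations were -0.025 to 0.043. With the number as a replicate block, 1 gene was called over depth and 0 for 1 mg of tissue, and no call of the 8 genes changed, with PIF5 in CUT&Tag at 0.61.

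The call of PIF5 in CUT&Tag held with DESeq2 (0.61, adjusted p = 0.00106), an overlap of 200 bp (0.63) and only domains enriched at least 2-fold (0.58). PIF4 passed there with an overlap of 200 bp (0.27, adjusted p = 0.0466 in edgeR).

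Several log2 changes turned direction, and the cause was not tested. With the ChIP counts alone scaled by TMM, the values that turned were as follows. In the depth trend they were 0.086 for PIF1, 0.062 for PIF3 and 0.41 for PIF4. In 14 against 10 cycles they were 0.48 for HY5, 0.13 for HYH, -0.14 for PIF1 and -0.053 for PIF4. In 20K against 500K nuclei they were -0.35 for HYH, -0.40 for PIF1, -0.24 for PIF5 and -0.27 for PIF7. PIF4 was at -0.015 in 1 mg of tissue. In eChIP they were 0.21 for PIF3, -0.25 for PIF4 and -0.26 for PIF7, and in CUT&Tag 0.076 for PIF3, -0.099 for PIF5, -0.64 for PIF7, -1.76 for COP1, -0.92 for BBX25, 0.47 for PSY, 0.67 for IAA19 and -1.48 for HFR1. On the library-size scale, the values that turned were -0.10 for HY5, -0.059 for HYH and -0.22 for PIF5 over depth, and -0.16 for PIF4 between cycles. In 20K against 500K nuclei they were -0.90 for HY5, -0.78 for HYH, -0.63 for PIF1, -0.89 for PIF5, -0.64 for PIF7 and -0.76 for COP1. In eChIP they were -0.099 for PIF4 and -0.28 for PIF7, and in CUT&Tag -0.69 for HY5, -0.50 for PIF4, -0.14 for PIF5, -0.69 for PIF7, -0.72 for COP1, -0.25 for SPA3 and -0.31 for BBX25. With only domains enriched at least 2-fold, PIF3 in CUT&Tag was at 0.089.

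Without 1 replicate, the uncalled estimates that turned ranged over depth from -0.15 to 0.058 for PIF1, -0.16 to 0.060 for PIF3, -0.22 to 0.018 for PIF4, -0.079 to 0.13 for PIF5 and -0.32 to 0.024 for COP1. For cycles the ranges were -0.050 to 0.039 for HY5, -0.11 to 0.042 for HYH, -0.13 to 0.18 for PIF4, -0.080 to 0.0023 for PIF5, -0.61 to 0.039 for PIF7 and -0.073 to 0.49 for COP1. For 20K nuclei they were -0.042 to 0.11 for HY5, -0.39 to 0.21 for PIF4, -0.060 to 0.16 for PIF5, -0.017 to 0.74 for PIF7 and -0.0031 to 0.33 for COP1. For 1 mg of tissue they were -0.28 to 0.64 for PIF4, -0.064 to 0.00037 for PIF5 and -0.35 to 0.20 for PIF7, and for eChIP -0.18 to 0.084 for HY5. For CUT&Tag they were -0.022 to 0.18 for HY5, -0.50 to 0.011 for PIF1, -0.087 to 0.23 for PIF7 and -0.026 to 0.18 for COP1. Depth limits the values of PHILO 0.5M, where HY5 rests on 9 ChIP reads and PIF3 on 13 in replicate 2, and COP1 on 17 in each replicate.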
